A study of Mus musculus with 3 samples.

Results

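The hair shaft keratins described here are 10 genes, 6 of type I (Krt31, Krt33a, Krt33b, Krt34, Krt35 and Krt36) and 4 of type II (Krt81, Krt83, Krt85 and Krt86). They were taken by name from the 21877 gene rows that the 3 tables of the series share, and all 10 were found. Their RNA was measured by sequencing whole skin of the inbred mouse strain FVB before birth (E18.5, embryonic day 18.5), after it (P3, postnatal day 3) and in adults 10 weeks old. The mice are headed as wild type in the tables, and no treatment is named. The series design gives 2 biological replicates per age, but each table holds 1 averaged value per gene. No spread between animals could therefore be computed, no difference below has a replicate check or a p-value, and the sequencing depth is unknown. Values are FPKM, fragments scaled to transcript length and to the number of mapped fragments, so that levels of different genes are compared per length.

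The shaft of a hair is a column of dead cells packed with keratin filaments. Each filament is built from pairs of 1 acidic type I and 1 basic type II keratin, and hair keratins are rich in cysteine, through which they are cross-linked to the keratin-associated proteins around them. The genes are switched on in sequence as cells leave the proliferating matrix of the hair bulb. In human follicles KRT35 and KRT85 are the earliest, in matrix, precortex and cuticle, and KRT31, KRT33, KRT34, KRT81, KRT83 and KRT86 follow higher in the cortex. Shafts are made only by follicles in their growth phase, and growth and rest alternate after the first coat has formed. The labels do not give the hair cycle phase or the body site of the skin.

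The start regions of the genes are shown where they could be matched. Whether their motifs bear on the age differences was not tested. RefSeq's promoter table (GRCm38.p6) matched 4 of the 10, all type I. Each line below holds the 250 bases before the gene's listed start, 5′ to 3′ on the minus strand of chromosome 11. Capitals mark TATAAA (a form of the TATA box), CTTTGA (the core bound by LEF and TCF factors) and TTTAT (a core of sites described for Hoxc13), searched on both strands. The reverse complement of TTTAT lies within TATAAA, and such overlaps were not counted as TTTAT.
Krt31, chr11:100050552-100050801: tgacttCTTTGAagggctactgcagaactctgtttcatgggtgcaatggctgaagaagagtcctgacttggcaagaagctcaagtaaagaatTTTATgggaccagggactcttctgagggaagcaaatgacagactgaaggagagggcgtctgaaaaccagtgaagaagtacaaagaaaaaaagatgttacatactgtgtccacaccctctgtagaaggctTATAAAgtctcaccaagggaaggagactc
Krt33b, chr11:100029869-100030118: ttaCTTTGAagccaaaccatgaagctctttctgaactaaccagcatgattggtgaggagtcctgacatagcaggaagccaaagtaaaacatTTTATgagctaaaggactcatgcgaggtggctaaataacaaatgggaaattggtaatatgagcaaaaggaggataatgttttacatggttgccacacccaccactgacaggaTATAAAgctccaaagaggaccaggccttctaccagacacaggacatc
Krt34, chr11:100041555-100041804: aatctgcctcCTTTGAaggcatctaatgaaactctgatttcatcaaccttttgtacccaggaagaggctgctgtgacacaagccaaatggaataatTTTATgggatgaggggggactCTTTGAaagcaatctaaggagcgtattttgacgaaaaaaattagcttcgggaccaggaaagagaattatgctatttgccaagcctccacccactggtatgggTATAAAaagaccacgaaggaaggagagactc
Krt36, chr11:100105627-100105876: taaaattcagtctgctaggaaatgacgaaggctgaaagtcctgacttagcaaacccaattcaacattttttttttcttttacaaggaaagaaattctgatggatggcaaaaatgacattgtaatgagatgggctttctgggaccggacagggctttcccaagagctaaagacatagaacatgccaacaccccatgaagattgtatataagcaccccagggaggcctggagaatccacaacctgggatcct
Krt31, Krt33b and Krt34 each held all 3 motifs, with CTTTGA farthest from the start, TTTAT next and TATAAA nearest. In Krt34 a second copy of CTTTGA was present closer to the start. This arrangement was not confined to members: of 5 other shaft keratins with a window, Krt32 held the 3 motifs in the same order, beginning 247, 158 and 29 bases before the start, with a further TATAAA at 88. Of these 5 windows, 3 held TATAAA, 2 held CTTTGA and 5 held TTTAT. In members TATAAA began 29 bases before the start in Krt31, 31 in Krt34 and 47 in Krt33b. TTTAT began 158, 154 and 159 bases before the start in Krt31, Krt34 and Krt33b. CTTTGA began 244 bases before the start in Krt31 and 247 in Krt33b, and Krt34 held it at 240 and 133 bases. In the Krt36 window none of the 3 was present, which says only that these letters are not in this window. Other forms of the TATA box were not searched, and the Krt36 window holds tatataag. Of all 32851 windows of this length in the table, 12.4% held TATAAA, 13.8% held CTTTGA, 31.0% held TTTAT and 1.10% held all 3. The 3 matching genes are close relatives, with transcripts 85.4% to 89.6% identical over aligned bases, so their matches are not separate observations.

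All 10 hair shaft keratins stood at their highest at P3. Their summed level was 37.7 FPKM at E18.5, 945 FPKM at P3 and 37.9 FPKM at 10 weeks. The sum at P3 was thus 25.04 times that at E18.5 and 24.9 times that at 10 weeks, and the adult sum was 1.00 times the embryonic one. At least 1 FPKM was reached by 5 of the 10 at E18.5, and by all 10 at both later ages.

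Krt35, the type I keratin of the matrix and early cortex, stood highest among the members at every age. It was at 16.6 FPKM at E18.5, 211 FPKM at P3 and 11.7 FPKM at 10 weeks (mm9 chromosome 11, 99953506 to 99957538). At P3 it ranked 386 among all rows by FPKM. Krt85, its type II counterpart in early shaft cells, was at 12.6, 148 and 7.38 FPKM over the same ages. Its row carries a span of chromosome 15 (101346119 to 101524736) that 11 rows share, Krt75, Krt6a and Krt82 among them. Krt35 was 1.32 times Krt85 before birth, 1.42 times at P3 and 1.58 times in adults. At E18.5 Krt35 was at 0.0785 and Krt85 at 0.0847 of the P3 level, as was Krt36 at 0.0784, while the other 7 members lay between 0.00415 and 0.0301.

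The 4 neighbouring type I cortex keratins Krt31, Krt33a, Krt33b and Krt34 were all under 1 FPKM at E18.5. Krt33a was at 0.874 FPKM at E18.5, 149 FPKM at P3 and 4.21 FPKM at 10 weeks. Krt31 was at 0.834, 89.0 and 2.12 FPKM, and Krt33b at 0.282, 67.8 and 2.22 FPKM. Krt34 was lowest of the 4 at P3, with 0.450, 59.0 and 1.49 FPKM at the 3 ages. Their summed level at P3 was 150 times that at E18.5, against 12.7 times for Krt35. At 10 weeks their sum was 4.11 times the E18.5 value, whereas Krt35 was at 0.703 times its own.

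Krt36, a type I hair keratin also known from nail and tongue papillae, was the exception in level and course. It was at 0.963 FPKM at E18.5, 12.3 FPKM at P3 and 3.36 FPKM at 10 weeks, the lowest member at P3 but the fourth highest at 10 weeks. Its adult level was 0.273 times its P3 level, while in the other 9 members this ratio lay between 0.0233 and 0.0552. The 4 cortex genes and Krt36 thus all had an adult value above their embryonic one.

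Of the type II cortex keratins, Krt83 was at 1.84 FPKM at E18.5, 84.1 FPKM at P3 and 1.95 FPKM at 10 weeks. Krt81 was at 1.69, 68.7 and 2.05 FPKM, and Krt86 at 1.65, 54.7 and 1.44 FPKM. The 3 genes stood close together at each age, and their adult and embryonic values were similar in size, with ratios of 10 weeks over E18.5 of 1.06, 1.21 and 0.876 for Krt83, Krt81 and Krt86. The row listed as Krt83 spans 7315 bases, which is the length of the RefSeq gene now named Krt87 (an alias of which is Krt83) and not of the RefSeq gene now named Krt83 (6383 bases). The name of the tables is kept here. In 6 further members the listed span equals the length of the RefSeq gene of the same symbol.

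**Figure D1:**
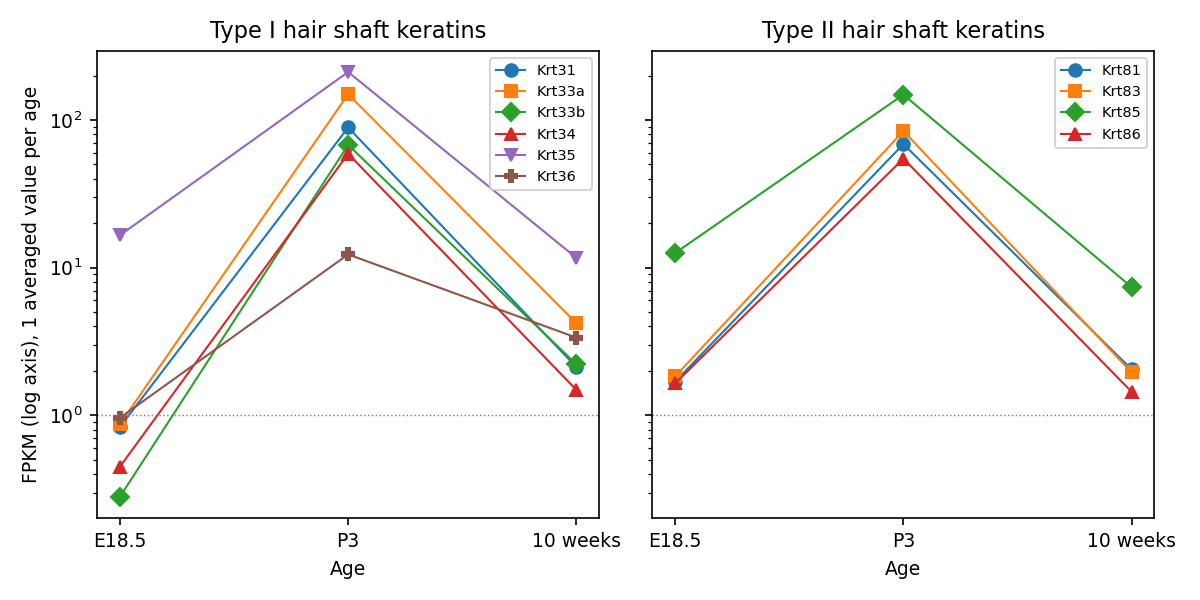
Level of each hair shaft keratin in whole FVB skin, in FPKM on a log axis, at E18.5, P3 and 10 weeks; each point is 1 averaged value, so no error can be drawn, and the dotted line is 1 FPKM. All 10 members peak at P3, Krt35 and Krt85 lie above the others at E18.5, and Krt36 is flattest, at 12.3 FPKM at P3.

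Several of these levels rest on reads that more than 1 gene can produce. In GENCODE transcripts, the share of 50-base stretches that also occur in a transcript of another gene was 43.5% for Krt81 and 43.3% for Krt86. It was 36.9% for Krt87, the gene matched to the Krt83 row, and between 21.9% (Krt33a) and 33.1% (Krt34) for the 4 type I cortex genes. In Krt35 it was 3.95% and in Krt36 0.432%. Krt85 had no entry. How shared reads were divided is not given in the sources used here, so single levels within Krt31, Krt33a, Krt33b and Krt34, and within Krt81, Krt83 and Krt86, are uncertain. Sums over each of these sets are less exposed to division within the set. The type II sum stays exposed to genes outside it. Krt87 shared most with Gm49425, and Krt81 and Krt86 shared with both Krt83 and Krt87, of which the sum holds 1 row.

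The make-up of the keratin RNA differed between ages. Krt35 and Krt85 together held 77.3% of the summed FPKM of the 10 members before birth, 38.1% at P3 and 50.3% in adults. The 4 type I cortex genes held 6.46%, 38.7% and 26.5%, and Krt81, Krt83 and Krt86 held 13.7%, 22.0% and 14.4%. Set against Krt35, the 4 type I cortex genes summed to 0.147 times its level at E18.5, 1.73 times at P3 and 0.861 times at 10 weeks. Set against Krt85, the 3 type II cortex genes summed to 0.412, 1.40 and 0.738 times its level. In both types, then, the later cortex genes were lowest relative to the early gene before birth and highest at P3. Krt36 held 2.55% before birth, 1.30% at P3 and 8.87% in adults.

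**Figure D2:**
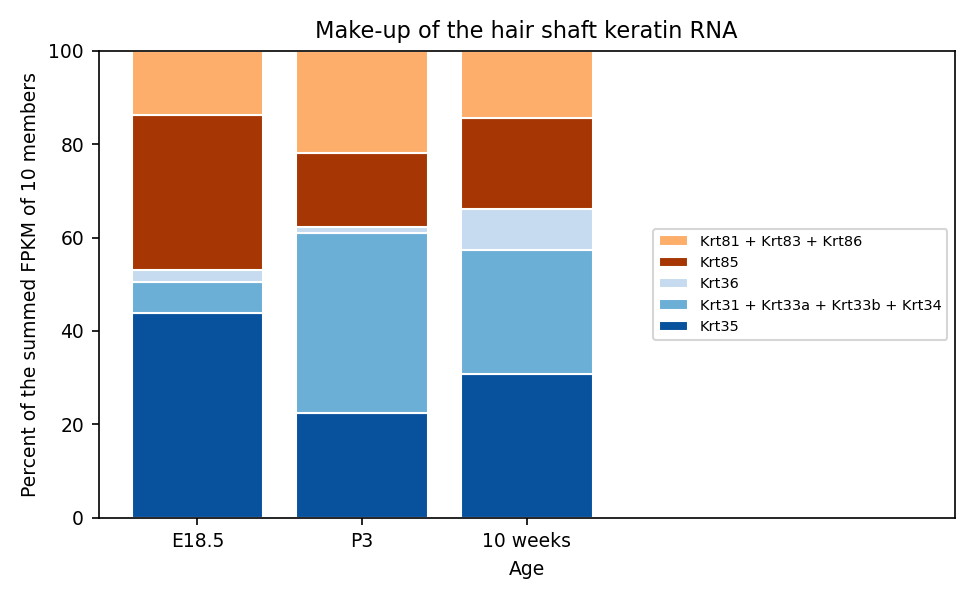
Share of each gene or gene set in the summed FPKM of the 10 hair shaft keratins at the 3 ages, in percent; blue shades are type I and orange to brown shades type II. Krt35 and Krt85 fill 38.1% of the bar at P3, against 77.3% at E18.5.

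Because type I and type II chains pair in equal numbers, their sums were set side by side. Type I members summed to 20.0 FPKM at E18.5, 589 FPKM at P3 and 25.1 FPKM at 10 weeks. Type II members summed to 17.7, 356 and 12.8 FPKM. Type I was 1.13 times type II before birth, 1.65 times at P3 and 1.95 times in adults, so the type I excess in RNA was smallest before birth. These sums leave out other keratins that can pair with either type.

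Differences between ages were next set against all genes on the scale of log2(FPKM + 1), leaving out genes that stayed under 1 FPKM throughout. All 10 members passed this filter. Genes that differed by 1 or more on this scale (2-fold) were called higher or lower, a measure that understates the change of low genes. At P3 against E18.5, all 10 members were higher and 0 lower, where 9.56% of 14653 genes compared were higher and 9.42% lower. The members' median difference was 4.80, beside 0.03 over all genes. Krt33a had the largest difference, 6.33, and ranked 20 from the top among all genes. Krt33b (5.75), Krt31 (5.62) and Krt34 (5.37) followed. Krt83 (4.91), Krt81 (4.69) and Krt86 (4.40) came after these, then Krt35 (3.59) and Krt85 (3.46). Krt36 had the smallest, 2.76, and ranked 184. The order at the top depended on the pseudocount: with one of 0.1, Krt33b (7.48) stood above Krt33a (7.26). With scaling on the upper quartile, 1139 genes were higher and 1776 lower in this comparison (a shift of -0.19 in log2), against 1401 and 1380 as deposited, and all 10 members remained higher.

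At 10 weeks against P3, all 10 members were lower and 0 higher, where 9.98% of 14655 genes were lower and 19.8% higher. The median difference was -4.51, beside 0.14 over all genes. Apart from Krt36, which fell by 1.61, the members lay close together, between -4.85 in Krt31, Krt33a and Krt83 and -4.07 in Krt35. The comparison shares its P3 values with the one before, so an error in a P3 value would enter both with opposite sign.

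At 10 weeks against E18.5, 3 members were higher and 0 lower, where 16.1% of 14659 genes were higher and 6.92% lower. They were Krt33a (1.47), Krt33b (1.33) and Krt36 (1.15). With a pseudocount of 5 none of the 3 passed, and with one of 0.1 Krt31 and Krt34 passed as well. The median over members was 0.47, beside 0.22 over all genes. All type II members missed the threshold, with differences from -0.70 in Krt85 to 0.18 in Krt81, and the signs of Krt81, Krt83 and Krt86 changed with the scaling. Scaling on the upper quartile, by which log2 ratios of this comparison shift by -0.30, left 1787 genes higher and 1347 lower, against 2358 and 1014 as deposited. Krt36 then stood at 0.96, under the threshold.

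**Figure D3:**
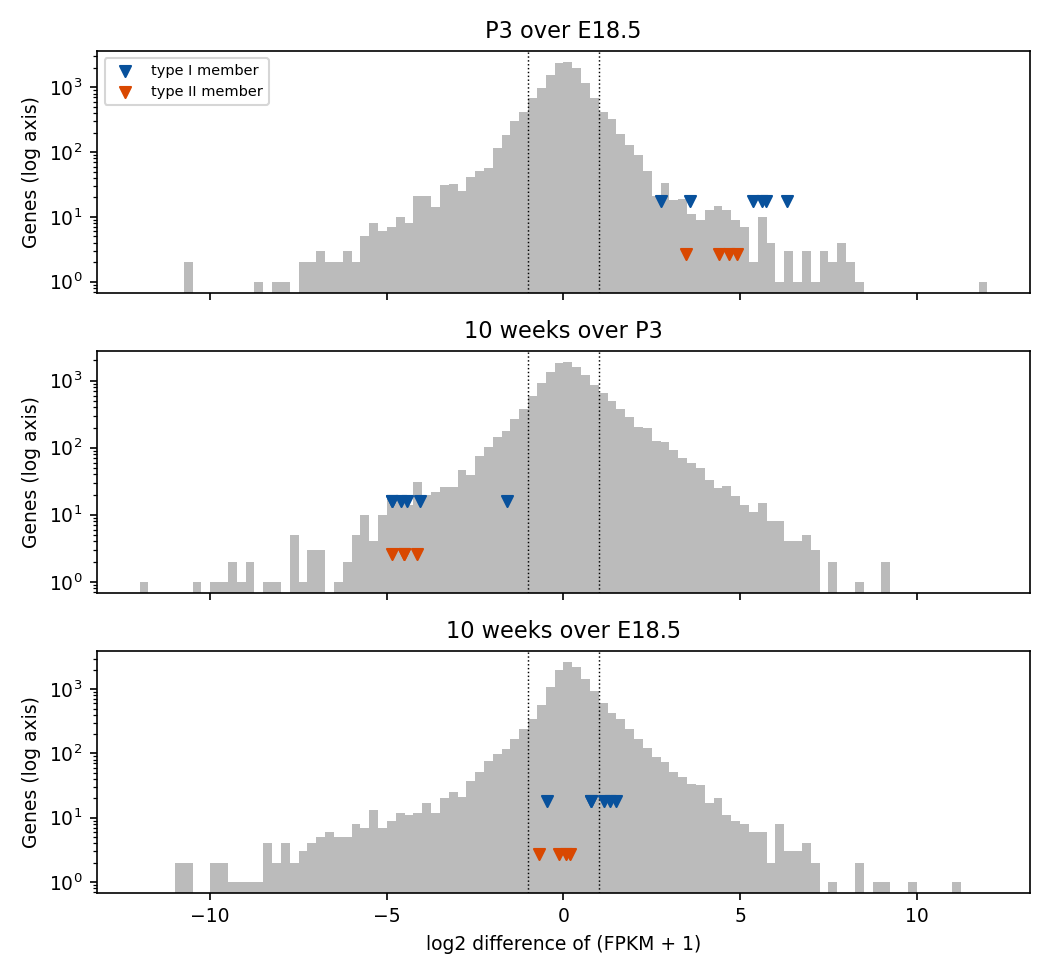
Distribution of log2 differences of (FPKM + 1) over all genes compared (grey bars, gene counts on a log axis) for the 3 pairs of ages; triangles mark the members at their difference, blue for type I and orange for type II, with heights chosen for legibility, and dotted lines mark 2-fold. The members lie far right in P3 over E18.5 (median 4.80), far left in 10 weeks over P3 (median -4.51) and near the centre in 10 weeks over E18.5 (median 0.47).

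The 6 type I members lie within 94.4 kb of chromosome 11 (mm9, 99872513 to 99966940). Their order is Krt33a, Krt33b, Krt34, Krt31, Krt35 and Krt36, and Krt32, another type I shaft keratin, lies between Krt31 and Krt35. Krt31 and Krt35 are separated by 41.6 kb, while the 4 cortex genes that share reads stand 5.09 to 7.48 kb apart. Krt32, known from the hair cuticle, was at 2.53 FPKM at E18.5, 46.0 FPKM at P3 and 4.34 FPKM at 10 weeks. Beyond Krt36 the next row is Krt13, a keratin of lining epithelia such as the tongue's, at 1.21, 3.81 and 0.184 FPKM. On the other side, 17.2 kb before Krt33a, lies Krtap17-1, a keratin-associated protein gene, at 1.02, 60.6 and 2.09 FPKM. Krt83, Krt81 and Krt86 lie in this order within 48.5 kb of chromosome 15 (101261921 to 101310414). Krt7, a keratin of simple epithelia 3.68 kb before Krt83, was at 2.32, 6.42 and 3.20 FPKM. The row 1700011A15Rik, between Krt83 and Krt81, stayed at or under 0.0549 FPKM at all 3 ages. Strong neighbours lay farther out: Krt15, a basal and bulge keratin beyond Krt13, was at 488, 726 and 969 FPKM, and Krt80, before Krt7, at 21.8, 156 and 127 FPKM.

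**Figure D4:**
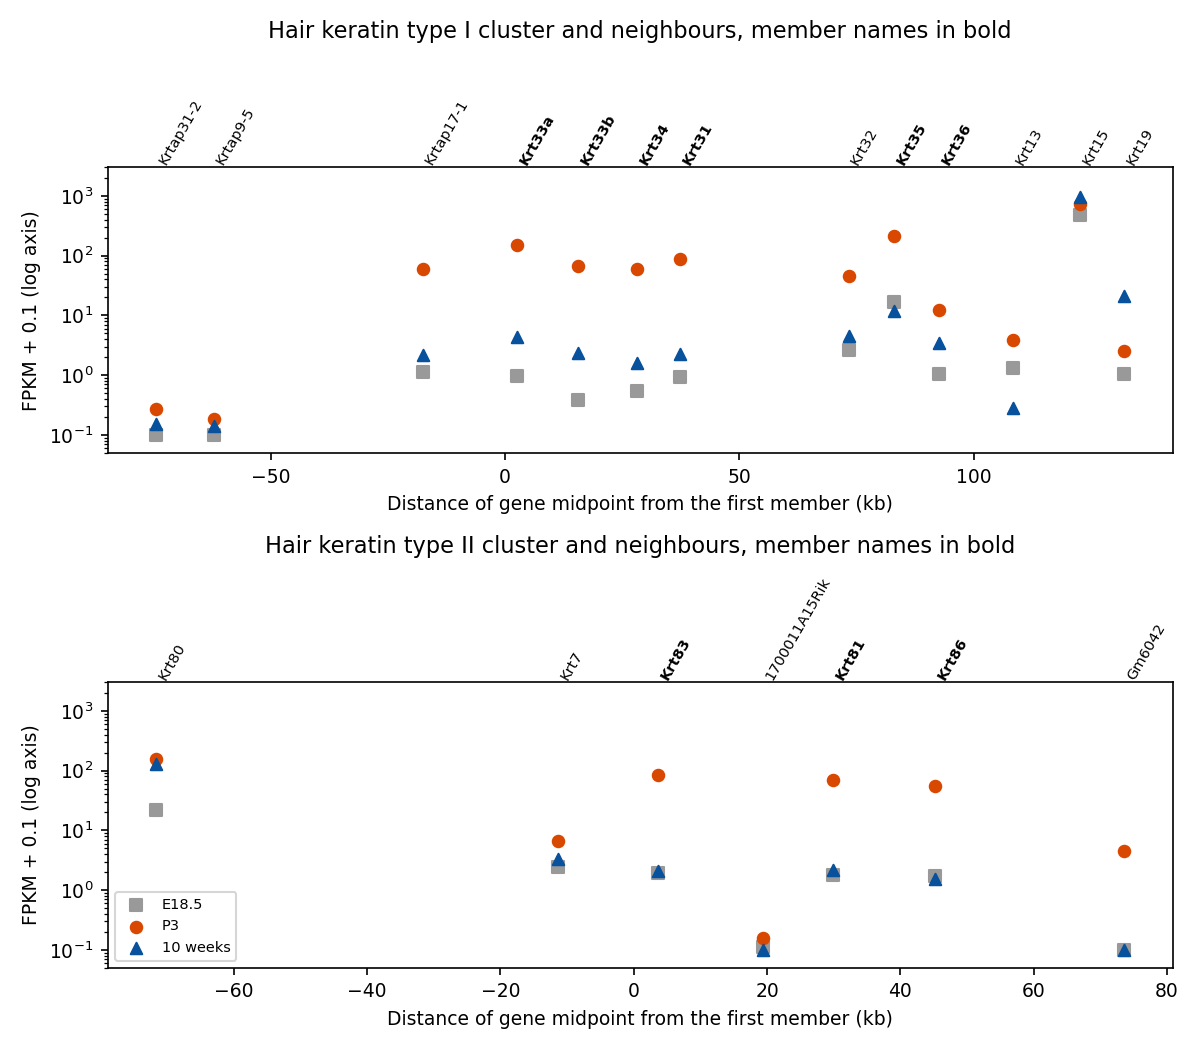
Level of the type I (top) and type II (bottom) members outside shared spans and of neighbouring genes, as FPKM + 0.1 on a log axis, against the distance of each gene's midpoint in kb from the first member's start; squares are E18.5, circles P3 and triangles 10 weeks. P3 values of members reach 12.3 to 211 FPKM. Among neighbours at P3, Krt32 at 46.0 and Krtap17-1 at 60.6 FPKM lie within this range, as does Krt80 at 156 FPKM. Krt13 is at 3.81, Krt7 at 6.42 and Krt15 at 726 FPKM.

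The genes most like the members in level and course together were found by a distance. It was taken on log2(FPKM + 1) at the 3 ages from the members' median course of 1.28, 76.0 and 2.17 FPKM. The measure rests on 3 values per gene. Levels were not centred, so genes of like course at another level lie far away. The closest non-member was Krtap17-1, at a distance of 0.37. Vsig8, an immunoglobulin-domain protein, followed at 0.59 (1.41, 61.2 and 3.48 FPKM), and Gprc5d, an orphan receptor of hair-forming cells, at 0.61 (0.533, 68.9 and 1.86 FPKM). Krt26 of the inner root sheath stood at 0.61, with 2.02, 77.3 and 3.36 FPKM. The lens crystallin gene Cryba4 (0.70) and the neuropeptide gene Npy (0.75) came next. Cryba4 was at 1.59, 50.1 and 2.98 FPKM, and Npy at 1.11, 45.4 and 1.86 FPKM. D730001G18Rik (0.79) and Krtap3-3 (0.87) complete the 8. Among members, Krt81 lay closest to the median course (0.28), and Krt35 (3.85), Krt85 (3.08) and Krt36 (2.58) farthest. Krt35 and Krt85 stood above the median course at every age, so their distances also hold a difference in level.

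Of 6 other keratins of the shaft, 5 were matched. Each was higher at P3 than before birth and lower again in adults, beside 9.56% and 9.98% of all genes compared. Krt39, Krt40 and Krt84 were under 1 FPKM at both other ages. They passed the filter only through P3, so they could not be called the other way. With only values that the tables mark as OK, 2 of the 5 matched keratins could be compared at P3 with E18.5, and both were higher. Krt82, a type II cuticle keratin, was at 0.281, 25.01 and 1.16 FPKM over the 3 ages, and Krt40 at 0.102, 11.01 and 0.265 FPKM. Krt84, known chiefly from tongue and nail, reached 1.68 FPKM at P3. The keratins of the root sheath, which encases the growing shaft, were higher at P3 in 9 of 9 and lower at 10 weeks in 9 of 9. Their medians were 4.32 and -4.15. Krt74 among them also passed the filter only through P3, so its direction was fixed by the filter. Their summed level, for which Krt72 was read from the row Krt72-ps, was 221 FPKM at E18.5, 4525 FPKM at P3 and 258 FPKM at 10 weeks. The summed shaft keratins were 0.171, 0.209 and 0.147 times this sum, so shaft and sheath keratin RNA stood in a similar proportion at the 3 ages. The 51 rows of keratin-associated proteins, the cross-linked matrix of the shaft, summed to 20.8, 4539 and 115 FPKM over the ages.

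Other proteins of the hair shaft were higher at P3 against E18.5 in 8 of 11 genes compared and lower in 0, with a median of 2.82. Gprc5d (5.51) and S100a3, a calcium-binding protein of the hair cuticle (5.03), had the largest differences. S100a3 was at 18.1, 624 and 36.2 FPKM over the ages. Padi3, which converts arginine to citrulline in shaft and sheath proteins, was at 3.11, 69.3 and 2.94 FPKM, and Dsg4, the desmoglein of the hair cortex, at 1.04, 20.8 and 1.09 FPKM. Of the 11, 8 were lower and 0 higher at 10 weeks against P3. Tgm3, a transglutaminase that cross-links shaft proteins, then fell by 4.97, to 0.508 FPKM, against 46.4 FPKM at P3. Selenbp1 and Lpar6 passed in neither comparison. The P3 value of Tchh, trichohyalin, is a failed estimate and was left out.

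Transcription factors and signals known for control of shaft formation differed less than the keratins. At P3 against E18.5, 16 of 25 were higher and 1 lower, with a median of 1.20. Dlx3, a homeobox factor, had a difference of 2.17 and the vitamin D receptor Vdr one of 2.16, with 8.65, 42.1 and 18.8 FPKM for Vdr over the ages. Hoxc13, the homeobox factor known to bind hair keratin promoters, was at 6.31, 27.6 and 3.50 FPKM. The lower one was Trps1, at 4.93 FPKM at P3, against 11.2 FPKM at E18.5. At 10 weeks against P3, 17 of 25 were lower and 0 higher (median -1.26), led by Dlx3, which fell by 3.08, and Msx2, which fell by 2.83. Set against E18.5, 3 of 25 were higher and 4 lower at 10 weeks, where 16.1% of all genes compared were higher and 6.92% lower. With scaling on the upper quartile the 2 counts were 1 and 8. Lef1, the Wnt effector whose core motif is marked above, was among the lower with -1.95, and Shh, a growth signal of the bulb, had -2.63. Foxq1, a forkhead factor of the hair medulla in mouse, was among the higher, with 1.11, 8.18 and 6.63 FPKM.

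**Figure D5:**
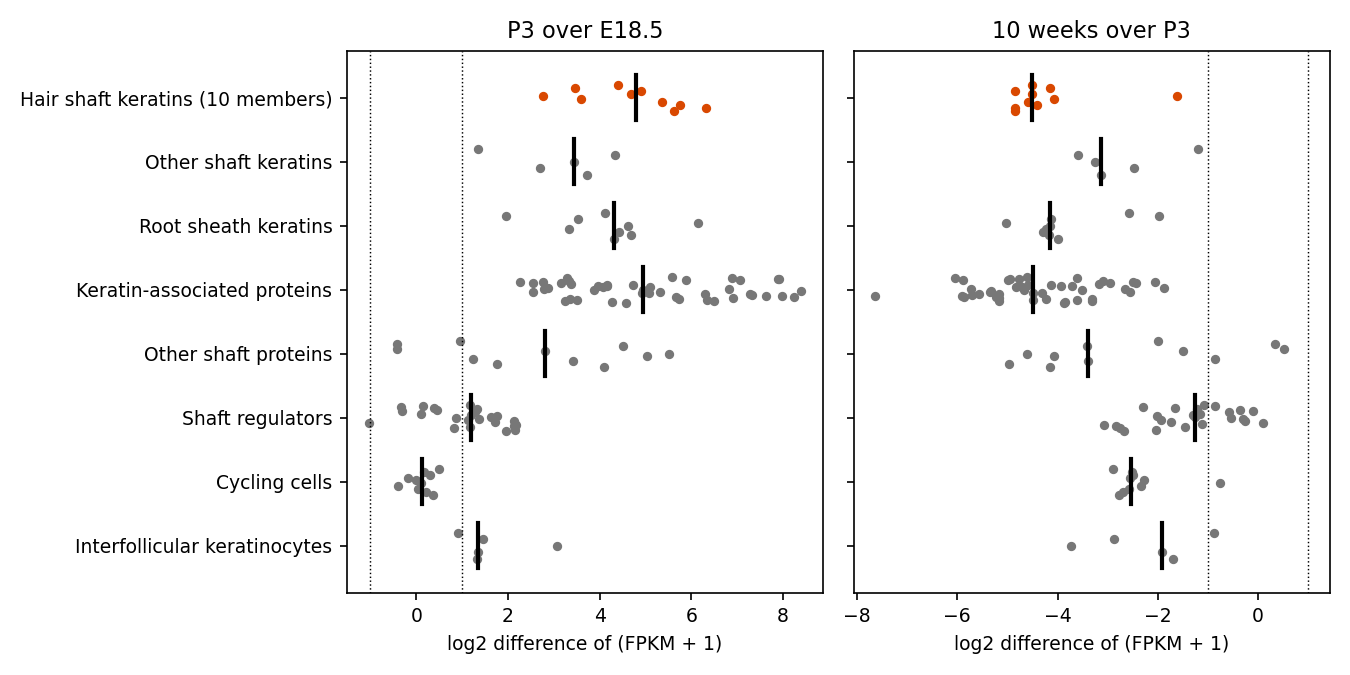
Log2 differences of (FPKM + 1) for P3 over E18.5 (left) and 10 weeks over P3 (right); each point is a gene, black bars are medians, orange marks the 10 members and dotted lines mark 2-fold. Member medians of 4.80 and -4.51 stand near those of the root sheath (4.32 and -4.15) and beyond those of the shaft regulators (1.20 and -1.26).

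Marker lists of other cells in whole skin moved between the same ages. In bulk tissue, fewer cells of a type and less RNA per cell cannot be told apart. Genes of cycling cells, which the bulb matrix also holds, were higher in 0 and lower in 0 of 10 at P3 against E18.5, and lower in 9 of 10 at 10 weeks against P3, Mki67 being at 36.7, 47.2 and 6.04 FPKM. Markers listed as interfollicular keratinocyte genes were higher at P3 in 4 of 5 compared. Of these, Krt5, Krt14 and Trp63 are also made in the follicle, so the list is not specific to skin between follicles. The P3 estimates of Krt1 and Krt10 had failed, and Krt2 lay under 1 FPKM at all ages. Krt5 and Krt14 together were at 2009 FPKM at E18.5, 5077 FPKM at P3 and 1462 FPKM at 10 weeks. The hair shaft keratins summed to 0.0188, 0.186 and 0.0259 times this basal keratin pair. When all values were scaled on Krt5 and Krt14, a choice made after the data were seen, log2 ratios shifted by -1.34 at P3 against E18.5 and by 1.80 at 10 weeks against P3. The 10 members were then still higher at P3 (median 3.58), and 9 of 10 lower at 10 weeks than at P3 (median -2.97). The exception was Krt36, at -0.06. Melanocyte genes, which serve the same bulbs, were higher at P3 in 3 of 6 and lower at 10 weeks in 5 of 6, and their sum was 107, 263 and 32.2 FPKM.

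Tissues below and around the follicles moved the other way. Skeletal muscle markers summed to 5005 FPKM at E18.5, 428 FPKM at P3 and 24364 FPKM at 10 weeks, with 9 of 10 lower at P3 and 10 of 10 higher at 10 weeks. Adipocyte markers summed to 6175, 1853 and 10136 FPKM, with 7 of 8 lower and 1, Lep, higher at P3, and 8 of 8 higher at 10 weeks. Fibroblast markers were lower at P3 in 5 of 5 compared and higher at 10 weeks in 3 of 6, with sums of 4565 FPKM at 10 weeks and 1907 FPKM at P3. At E18.5, where the Col3a1 estimate failed, the other 5 summed to 3142 FPKM. Endothelial markers, at 138, 43.9 and 125 FPKM in sum, were lower at P3 in 5 of 5 and higher at 10 weeks in 4 of 5. Macrophage markers, at 154, 64.5 and 1447 FPKM, were lower at P3 in 3 of 6 and higher at 10 weeks in 6 of 6. No marker of these lists was at 0 other than the failed estimates. Sex-linked genes differed too, with Xist at 0.0433, 64.6 and 73.0 FPKM and the Y-linked Eif2s3y at 42.1 FPKM before birth, 0.0838 FPKM at P3 and listed at 0 at 10 weeks. The other Y-linked genes listed, Ddx3y, Uty and Kdm5d, were likewise highest before birth. Sex and age can therefore not be told apart in comparisons with E18.5. The part of tissue make-up and of sex in the keratin differences was not tested. Scaling on Krt5 and Krt14 only rescales each age and does not separate either from age.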

How the data were processed

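RNA of whole FVB skin at 3 ages was sequenced from TruSeq libraries made with 1 ug of total RNA, per the labels' protocols. The deposited values are FPKM, 1 average per gene and age, per the file headers. TopHat2 2.0.7, Cufflinks 2.1.1 and the mouse build mm9 are named in the submitters' processing notes; for annotation, strand setting, depth and shared reads the sources used here give nothing. Values at 0 with the status FAIL or HIDATA count as failed estimates and were not used (3 at E18.5, 7 at P3, 0 at 10 weeks); no member was affected. Differences are log2 of (FPKM + 1), without genes under 1 FPKM at all ages, called at 2-fold. Simulated data without noise checked only that the calculation returned known differences, not how often a call is wrong. The test foreseen for replicate columns was not run, because the tables hold 1 value per age. Starts in the tables count from 0 and 1 was added, since end minus start equals a RefSeq keratin gene length in 7 of 10 members. mm9 coordinates come from the tables and GRCm38 coordinates from RefSeq, and the builds were not mixed. Named genes are the members, genes of 13 fixed lists (led by the largest differences) and the 8 of most similar level and course. Neighbours in the clusters are also named, and these were chosen after the data were seen. The members and lists were chosen with earlier results of these data known. Of all listed genes 1, Krt87, was not matched. Alternatives were other pseudocounts, filters, scalings and statuses. Python 3.11.15, pandas 2.3.3 and Biopython 1.88 were used.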

Additional observations from a re-analysis of the deposited data

How the results depend on the processing

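The calls of the members and of 12 gene lists and each member's difference were recomputed with pseudocounts of 0.1 and 5, no filter, a filter of 5 FPKM, median-of-ratios and upper-quartile scaling, and only values with status OK; scaling on Krt5 and Krt14 was added for the members after the data were seen. Keratin-associated, sex-linked and keratin-family counts were not recomputed. No called difference of a member changed sign. Uncalled ones did at 10 weeks against E18.5: Krt83 was at -0.09 under median of ratios and -0.14 under the upper quartile, Krt81 at -0.01 under the upper quartile, and Krt86 at 0.19 under scaling on Krt5 and Krt14. Under these settings, all 10 members stayed higher at P3 against E18.5 and lower at 10 weeks against P3, except Krt36 under scaling on Krt5 and Krt14 (-0.06 at 10 weeks against P3). The count of members higher at 10 weeks than at E18.5, 3 as reported, was 5 with a pseudocount of 0.1 or scaling on Krt5 and Krt14 and 0 with a pseudocount of 5. At 10 weeks against E18.5, a pseudocount of 0.1 gave 2 other shaft keratins higher in place of 0. A pseudocount of 5 gave 1 root sheath keratin higher (2 as reported), 0 shaft proteins higher (2) and 1 lower (2), 0 regulators higher (3) and 2 lower (4), and 2 melanocyte genes lower (5). Both scalings gave 1 root sheath keratin higher and 1 lower (0), 1 shaft protein higher, 1 regulator higher and 1 endothelial gene lower (0), with 7 regulators lower under median of ratios and 8 under the upper quartile. At P3 against E18.5, a pseudocount of 5 gave 0 regulators lower (1), the adipocyte gene higher was lost (0) with it and with both scalings, and status OK left 2 other shaft keratins higher (5). Over all genes at P3 against E18.5, a pseudocount of 5 gave 842 higher and 626 lower and one of 0.1 gave 2155 lower. For 10 weeks, a pseudocount of 5 gave 1596 higher and 898 lower against P3, and 1274 higher and 561 lower against E18.5. Scaling on Krt5 and Krt14 gave 285 higher and 7580 lower at P3 against E18.5, and at 10 weeks 11863 higher and 339 lower against P3 and 4438 higher and 794 lower against E18.5. No paired analysis was possible because each age has 1 averaged value, and no replicate could be left out. Depth is unknown, so the precision of the members under 1 FPKM at E18.5 cannot be stated.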

Other observations

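Across the whole keratin family, 52 rows were listed, and 35 keratins other than the members could be compared at P3 with E18.5. Of these, 29 were higher and 0 lower (median 2.04), beside 9.56% and 9.42% of all genes. The 35 include the root sheath and other shaft keratins already described. Krt6b, Krt39, Krt40, Krt74 and Krt84 passed the filter only through P3, and Krt20 and Krt24 only through 10 weeks. Adult skin against P3 had 25 of the 35 lower and 5 higher (median -1.97), beside 9.98% and 19.8% of all genes. Krt12, best known as the keratin of the corneal epithelium, was at 5.89 FPKM at E18.5, 25.1 FPKM at P3 and 0.110 FPKM at 10 weeks. Krt24 was highest in adults, at 0.118, 0.793 and 4.34 FPKM, as did Krt8, a simple-epithelial keratin, at 1.71, 3.58 and 10.0 FPKM. Krt80, the neighbour of Krt7 on chromosome 15, was at 21.8, 156 and 127 FPKM, so that unlike the hair shaft keratins its adult level stayed close to its P3 level. These keratins were picked after their values were seen.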
